A study of Mus musculus with 2 samples.

Results

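The CXCR3 and CXCR6 chemokine axes comprise 5 genes of the 32285 measured: the receptors Cxcr3 and Cxcr6 and the ligands Cxcl9, Cxcl10 and Cxcl16. They were taken by symbol, and all 5 were among the rows of both deposited matrices. CXCR3 is carried by effector T cells and NK cells and binds CXCL9 and CXCL10, chemokines that myeloid and stromal cells make when they sense interferon-γ. CXCR6 marks effector and tissue-resident T cells and binds CXCL16, which is made as a membrane-anchored protein and can be shed by the proteases ADAM10 and ADAM17. In tumours both axes are known for placing T cells beside dendritic cells and macrophages. Cxcl11, another CXCR3 ligand, was not analysed here.

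The knockout library came from subcutaneous B16-F10 melanomas labelled FDPS-knockout (KO), and the control library from B16-F10 melanomas labelled WT, with 1 library in each group. B16-F10 is a mouse melanoma line, and FDPS is the mevalonate pathway enzyme farnesyl diphosphate synthase. The genotype belongs to the engrafted line; the strain, age and sex of the host mice, and whether the knockout line is a single clone, are not given in the sources used here. Tumours were taken 14 days after injection (n = 3 in each group), viable CD45+ cells were sorted, and droplet single-cell libraries were made. The labels do not tie cells to tumours, so each group is a single sample. Every value below therefore compares 2 libraries and not 2 conditions, no p-value is given, and every interval is an exact 95% Poisson or binomial interval that covers counting error only.

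The knockout library held 127186298 UMIs in 9130 barcodes and the control library 208936136 UMIs in 10882 barcodes, with 30 barcode sequences found in both. After filtering, 8062 knockout cells and 8595 control cells were kept, of which 89.9% and 88.6% fell into 15 marker-gated cell types. The gated types carried their defining markers: Cd8a was detected in 94.9% of knockout and 97.5% of control CD8 T cells, Ncr1 in 96.3% and 89.3% of NK cells, and Csf1r in 90.0% and 88.0% of monocytes and macrophages. In melanoma-gated cells, which passed the CD45 sort, Fdps was at 88.7 counts per 1000000 (CPM) in 18 knockout cells, against 399.6 CPM in 397 control cells. The share of kept cells gated as monocytes and macrophages was 16.4% in knockout and 47.4% in control. For CD8 T cells it was 27.3% in knockout and 21.5% in control, for conventional CD4 T cells 8.03% and 0.628%, and for NK cells 8.97% and 2.82%. The 3 conventional dendritic cell types (cDC1, cDC2 and mature DCs) together came to 10.0% in knockout and 5.27% in control.

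Levels are UMIs summed over the cells of a type in a library, in CPM of all UMIs of those cells. Differences are log2 ratios of CPM + 5, knockout over control, and a gene is called higher or lower where the 2 levels differ by at least 1.5-fold on that scale. Among all genes that averaged at least 10 CPM, 18.5% were called higher and 7.89% lower in CD8 T cells, and the middle of all their log2 ratios, the median, was 0.14. The same shares were 13.6% and 10.5% in conventional CD4 T cells, 20.4% and 13.7% in regulatory T cells, and 8.10% and 5.26% in NK cells. They were 14.9% and 14.4% in monocytes and macrophages, 10.7% and 5.60% in cDC1, 14.7% and 8.12% in cDC2, 20.2% and 12.4% in mature DCs, and 19.6% and 13.3% in the T cells of no other gate. With median-of-ratios scaling, which moves the median gene by up to 0.17, the shares called higher and lower were 11.3% and 13.7% in CD8 T cells, 15.2% and 18.2% in regulatory T cells, 13.5% and 18.0% in other T cells and 4.75% and 8.02% in NK cells. They were 7.85% and 8.40% in cDC1, 10.1% and 12.1% in cDC2, and 13.9% and 16.9% in mature DCs.

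**Figure D1:**
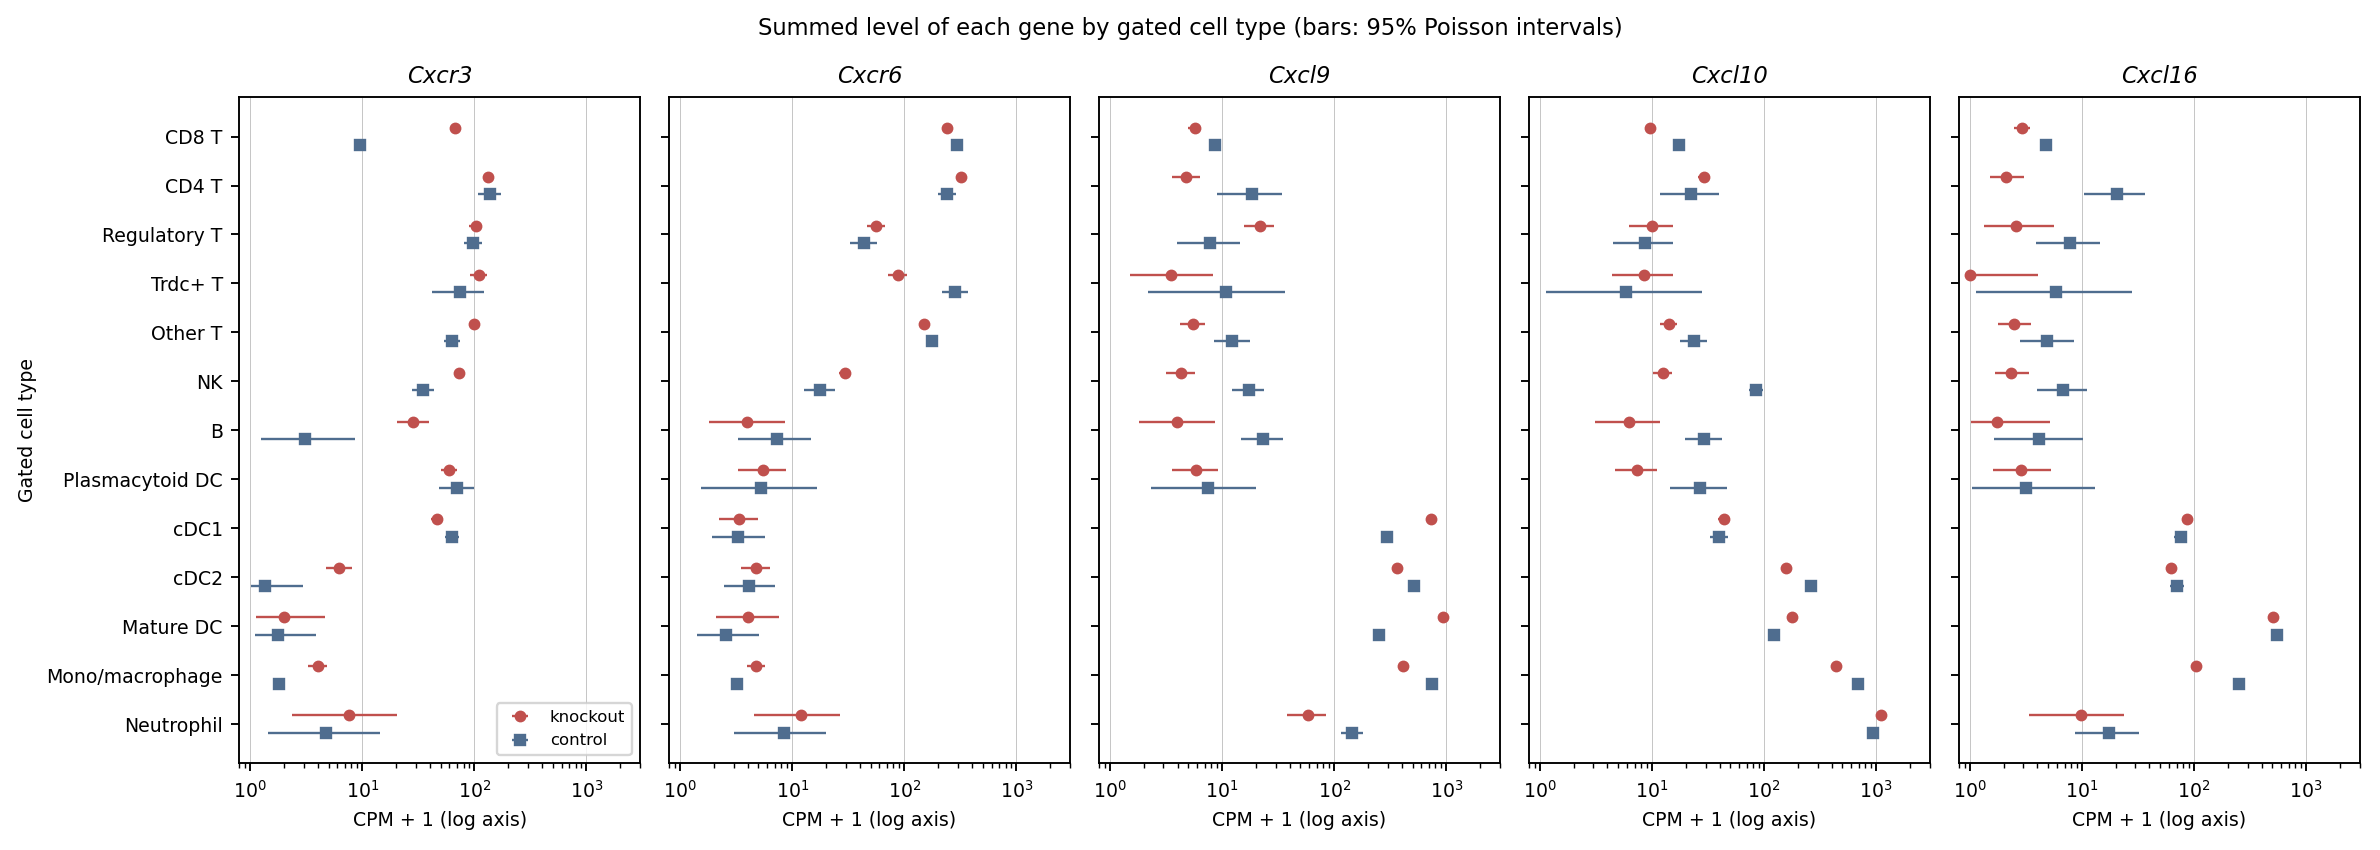
Summed level of the 5 genes (CPM + 1, log axis) in each gated cell type with at least 20 cells in each library, with knockout circles above control squares and 95% Poisson intervals as bars. Both receptors lie mainly on lymphocytes and the ligands on myeloid cells. Cxcr3 in CD8 T cells is at 65.6 CPM in knockout and 8.59 CPM in control.

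Cxcr3 was higher in the CD8 T cells of the knockout library and close between libraries in CD4 T cells. CD8 T cells had 65.6 CPM in knockout (2425 UMIs, interval 63.0 to 68.3) and 8.59 CPM in control (418 UMIs, interval 7.79 to 9.45), a log2 ratio of 2.38 (2.23 to 2.52). The receptor was detected in 50.8% of knockout CD8 T cells and in 13.2% of control CD8 T cells, although the control cells were the deeper, with a median of 21107 UMIs against 12527 UMIs in knockout. After every cell was thinned to 4000 UMIs the shares were 24.3% in knockout and 5.67% in control. The free-RNA level can be read from monocytes and macrophages, in which 3.78% of knockout and 1.40% of control cells had a Cxcr3 UMI at median depths of 11889 and 15413 UMIs. After thinning these were 0.838% in knockout and 0.337% in control, below the CD8 T cells of each library.

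In conventional CD4 T cells Cxcr3 was at 132 CPM in 647 knockout cells and 136 CPM in 54 control cells, a log2 ratio of -0.05 (-0.46 to 0.38) that became 0.85 when cells were named by cluster. Regulatory T cells had 102 CPM in knockout and 96.9 CPM in control, a log2 ratio of 0.07 (-0.38 to 0.53). Neither difference exceeded its counting error, and these intervals end below the value seen in CD8 T cells. NK cells had 71.5 CPM in knockout and 34.0 CPM in control, a log2 ratio of 0.97 (0.57 to 1.39), past 1.5-fold. The T cells of no other gate include those with UMIs of both Cd4 and Cd8. They had 97.5 CPM in knockout and 61.9 CPM in control, a log2 ratio of 0.62 (0.30 to 0.94). That call was lost when cells were named by cluster (0.01), with median-of-ratios scaling (0.49), with single-cell means (0.38) and after thinning (0.27). Trdc-positive T cells, a gate for γδ T cells, had 109 CPM in 124 knockout cells and 73.3 CPM in 24 control cells, with overlapping intervals.

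Beyond T and NK cells, Cxcr3 was carried by cDC1 and plasmacytoid DCs in both libraries. The cross-presenting cDC1 had 45.7 CPM in knockout and 62.4 CPM in control, a log2 ratio of -0.41 (-0.77 to -0.06), within 1.5-fold. Plasmacytoid DCs had 58.7 CPM in 155 knockout cells and 69.0 CPM in 32 control cells, with overlapping intervals. The summed level of 5 T cell receptor complex genes in cDC1 was 28.1 CPM in knockout and 32.7 CPM in control. Free RNA scaled by these genes came to 0.814 CPM of Cxcr3 in knockout and 0.191 CPM in control. B cells had 27.6 CPM in knockout (37 UMIs in 130 cells) and 2.09 CPM in control (2 UMIs in 143 cells), a log2 ratio of 2.20 (0.96 to 3.03). In the same B cells the T cell list was at 53.6 CPM in knockout and 57.5 CPM in control, and free RNA came to 1.31 CPM of Cxcr3 in knockout and 0.421 CPM in control. In cDC2, mature DCs and monocytes and macrophages Cxcr3 lay between 1.01 and 5.21 CPM in knockout, and between 0.351 and 0.797 CPM in control.

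In the order of levels, conventional CD4 T cells stood at the top in both libraries and CD8 T cells took different places. In knockout, CD4, Trdc-positive, regulatory and other T cells followed each other with overlapping neighbours, and NK cells, CD8 T cells, plasmacytoid DCs and cDC1 came next, again overlapping. In control, CD8 T cells stood below NK cells and above melanoma cells (4.18 CPM), with no overlap on either side.

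The CD8 T cells of the 2 libraries were spread differently over cell states, and Cxcr3 differed between states as well as between libraries. Dividing cells were 42.5% of CD8 T cells in knockout and 66.9% in control. Non-dividing cells with Tcf7, which encodes TCF1, a factor of stem-like T cells, were 28.7% in knockout and 5.09% in control, and non-dividing cells with Gzmc, a late effector granzyme, were 0.318% in knockout and 5.69% in control. Cxcr3 was highest in the Tcf7 state in both libraries, at 110.0 CPM in knockout and 70.5 CPM in control, a log2 ratio of 0.61 (0.16 to 1.08). In the remaining non-dividing cells it was 68.9 CPM in knockout and 23.7 CPM in control, a log2 ratio of 1.36 (1.02 to 1.71). In dividing cells it was 51.1 CPM in knockout and 5.84 CPM in control, a log2 ratio of 2.37 (2.19 to 2.54). All 3 states with enough cells in both libraries were thus past 1.5-fold in the same direction, by unequal amounts. The Tcf7 value lay close to the limit, a log2 ratio of 0.58, and its counting interval reached below it. Thinned Cxcr3 detection in the Tcf7 state was 33.3% in knockout (interval 29.5 to 37.2) and 25.6% in control (interval 16.6 to 36.4), which overlap. Over all genes and these 3 states, 13.1% of pairs of a gene and a state were called higher and 6.55% lower.

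Unsupervised clusters gave the same direction with a smaller size. In knockout, CD8 T cells fell mainly into clusters 2, 11, 21 and 10, led by Tox, Tcf7, histone and Ly49 genes, and in control mainly into clusters 32 and 34, led by granzymes Gzmc to Gzmg and by cell cycle genes. Cxcr3 was called higher in 7 of the 9 clusters with at least 20 CD8 T cells in each library, with log2 ratios between 0.14 and 2.16. Over all genes and these clusters 12.5% of pairs were called higher and 8.07% lower. The widest gap lay in cluster 34, at 35.3 CPM in 29 knockout cells and 3.99 CPM in 650 control cells. Cluster 10 was the closest, at 98.4 CPM in knockout and 88.5 CPM in control. With each cluster weighted equally, the log2 ratio for CD8 T cells was 0.73, against 2.38 for the pooled cells.

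**Figure D2:**
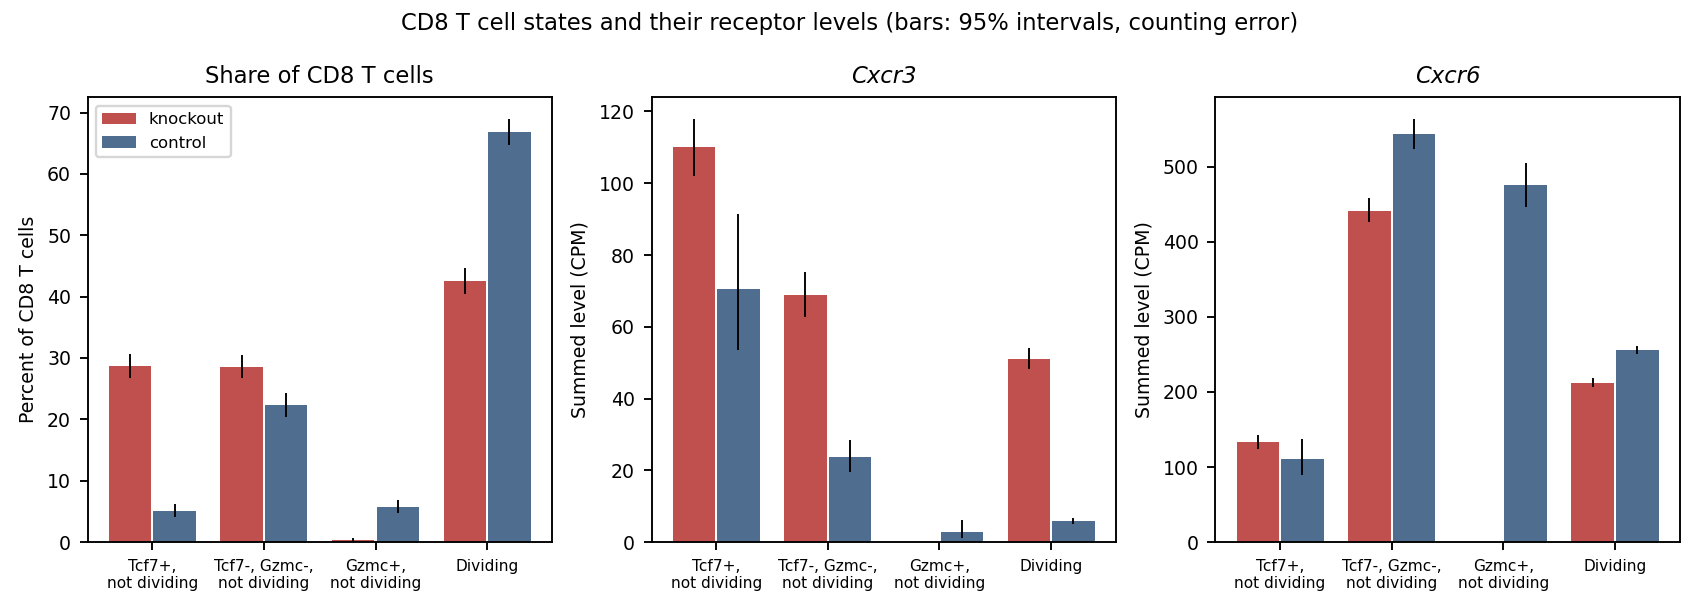
Share of CD8 T cells in 4 states (percent) and the summed Cxcr3 and Cxcr6 levels (CPM) in each state, with knockout bars left of control bars and 95% intervals of counting error. A level is drawn only for at least 20 cells, so the 7 knockout cells with Gzmc have none. Cxcr3 is called higher in knockout in each of the 3 states compared, narrowly in the Tcf7 state. Cxcr6 is within 1.5-fold in each of the 3 states.

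Cxcr6 was abundant in the CD8 T cells of both libraries and differed by less than 1.5-fold. CD8 T cells had 240.3 CPM in knockout (interval 235 to 245) and 293 CPM in control (288 to 298), a log2 ratio of -0.28 (-0.33 to -0.23). The share of CD8 T cells with a Cxcr6 UMI was 73.9% in knockout and 88.5% in control, and 49.9% and 63.0% after thinning to 4000 UMIs. B cells, which should lack the receptor, had a Cxcr6 UMI in 3.08% of knockout and 4.20% of control cells, at median depths of 8263 and 5990 UMIs. CD8 T cells held 63.3% of all Cxcr6 UMIs of the knockout library and 93.5% of those of the control library.

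Across CD8 states Cxcr6 followed another order than Cxcr3. It was 441 CPM in knockout and 543 CPM in control among non-dividing cells without Tcf7 or Gzmc, 212 CPM in knockout and 256 CPM in control among dividing cells, and 133 CPM in knockout and 111 CPM in control in the Tcf7 state. The state with the most Cxcr3 therefore had the least Cxcr6 in each library. The 105 control cells with Gzmc had Cxcr6 at 475 CPM, where Cxcr3 was at 2.77 CPM. By cluster, Cxcr6 was called lower in 3 of 9 clusters and higher in none, with the widest gap again in cluster 34, at 85.1 CPM in knockout and 204 CPM in control.

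Conventional CD4 T cells were the second large pool of Cxcr6 in the knockout library. They had 319 CPM in knockout and 239.8 CPM in control, a log2 ratio of 0.40 (0.10 to 0.72), and held 18.8% of the knockout and 0.807% of the control Cxcr6 UMIs. Their share of all cells was 8.03% in knockout and 0.628% in control. Regulatory T cells had 55.2 CPM in knockout and 42.5 CPM in control, with overlapping intervals. NK cells had 28.6 CPM in knockout and 16.7 CPM in control, a log2 ratio of 0.63 (0.09 to 1.17), a call that was lost with median-of-ratios scaling (0.54) and after thinning (0.58). In the knockout library 138 cells gated by Il1rl1 and Gata3 had 279.7 CPM, with the receptor detected in 66.7% of them, and the control library had 2 such cells. These cells are left unnamed, because the cluster that held most of them had 1 marker of innate lymphoid cells and 4 of mast cells among its 10 leading genes. The 138 gated cells themselves had Il1rl1 at 969 CPM, 1 UMI of the mast cell gene Mcpt4 and 0 UMIs of Cma1 and Tpsb2.

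The top places of the Cxcr6 order were close together. In knockout, CD4 T cells and the Il1rl1 and Gata3 gate overlapped, followed by CD8 T cells (240.3 CPM), other T cells (150.0 CPM), Trdc-positive T cells (86.9 CPM), regulatory T cells and NK cells. In control, CD8 T cells, 24 Trdc-positive T cells (283 CPM) and CD4 T cells overlapped, followed by other T cells (175 CPM), regulatory T cells and NK cells. From neutrophils down, every type stood at or under 7.40 CPM in control, and in knockout the neutrophil level rested on 5 UMIs and the rest were at or under 4.46 CPM.

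Both receptors were detected together in 39.9% of knockout CD8 T cells and 10.7% of control CD8 T cells, and in 13.2% and 3.43% after thinning. Cells with Cxcr6 alone were 34.0% in knockout and 77.7% in control. Of Cxcr3-positive CD8 T cells 78.5% also had Cxcr6 in knockout and 81.5% in control. Of Cxcr3-negative CD8 T cells 69.1% had Cxcr6 in knockout and 89.5% in control. The shares with both were near the product of the 2 single shares, 37.5% in knockout and 11.7% in control. Among conventional CD4 T cells the shares with both were close after thinning, at 24.0% in knockout and 24.4% in control.

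The ligand genes Cxcl9 and Cxcl10 lie next to each other on chromosome 5 of GRCm38, on the minus strand, at 92321347-92328079 and 92346638-92348889, with 18558 bases between them. Cxcl16 lies on chromosome 11 at 70453983-70459984 (minus strand), Cxcr6 on chromosome 9 at 123806475-123811760 (plus strand) and Cxcr3 on chromosome X at 101731535-101734269 (minus strand). Exons of Cxcl10 share 133 bases with Art3 and exons of Cxcl16 share 552 bases with Zmynd15, each on the other strand, and the sources used here do not state how strand was counted. Art3 had 418 UMIs in knockout and 750 UMIs in control, against 13481 and 63331 UMIs of Cxcl10. Zmynd15 had 589 UMIs in knockout and 1960 UMIs in control, against 4521 and 22654 UMIs of Cxcl16.

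The 250 bases before the start of Cxcl9 and Cxcl10 are shown because these neighbours answer to the same cytokine and were compared cell type by cell type. They are from RefSeq (GRCm38.p6), at chr5:92328080-92328329 for Cxcl9 and chr5:92348890-92349139 for Cxcl10, written 5′ to 3′ on the minus strand. Promoters of 4 of the 5 genes were in the table, those of Cxcr3 and Cxcr6 also, and Cxcl16 is named only. Capitals mark the matches found on either strand.
Cxcl9: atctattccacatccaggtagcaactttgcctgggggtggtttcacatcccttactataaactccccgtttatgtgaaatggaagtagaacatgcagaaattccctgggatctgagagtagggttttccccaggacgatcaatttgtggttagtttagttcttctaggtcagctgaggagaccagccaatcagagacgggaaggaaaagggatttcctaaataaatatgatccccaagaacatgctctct
Cxcl10: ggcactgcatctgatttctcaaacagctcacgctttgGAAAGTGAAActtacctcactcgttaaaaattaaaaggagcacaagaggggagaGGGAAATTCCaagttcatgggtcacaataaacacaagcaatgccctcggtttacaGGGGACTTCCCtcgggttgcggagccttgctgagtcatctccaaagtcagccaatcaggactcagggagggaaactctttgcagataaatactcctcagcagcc
The interferon response element GAAANNGAAA occurred once before Cxcl10, 213 bases before the start, and in 2.98% of 32851 promoters of the same length. The NF-kB consensus occurred 3 times before Cxcl10, 159, 104 and 103 bases before the start, the last pair overlapping, and in 7.25% of promoters. The interferon-γ activated sequence TTCNNNGAA, present in 7.02% of promoters, was not found before Cxcl9, Cxcl10, Cxcr3 or Cxcr6. No match says only that these letters are not in this window.

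Cxcl9 was lower in the monocytes and macrophages of the knockout library and higher in its cDC1 and mature DCs. Monocytes and macrophages had 412 CPM in 1322 knockout cells (interval 403 to 421) and 741 CPM in 4076 control cells (735 to 747), a log2 ratio of -0.84 (-0.88 to -0.79), with the gene detected in 29.3% of knockout and 56.2% of control cells. The cDC1 had 730.3 CPM in knockout and 294 CPM in control, a log2 ratio of 1.30 (1.16 to 1.43). Mature DCs, the migratory Ccr7-positive dendritic cells, had 929 CPM in knockout and 251 CPM in control, a log2 ratio of 1.87 (1.69 to 2.05). The cDC2 had 361 CPM in knockout and 515 CPM in control, a log2 ratio of -0.51 (-0.63 to -0.38), within 1.5-fold here, past it with median-of-ratios scaling (-0.62) and single-cell means (-0.70), and -0.04 with cells named by cluster. The order of the sources therefore differed, with mature DCs and cDC1 at the top in knockout, and monocytes and macrophages and cDC2 at the top in control, all 4 apart from their neighbours.

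Positive cDC1 and mature DCs of the knockout library held more Cxcl9 UMIs each. Cxcl9 was detected in 54.5% of knockout and 56.4% of control cDC1, and in 44.9% of knockout and 42.3% of control mature DCs. After thinning to 4000 UMIs these shares were 40.3% (33.9 to 46.9) in knockout and 27.1% (19.7 to 35.7) in control cDC1, and 35.4% (27.2 to 44.4) in knockout and 28.5% (21.7 to 36.0) in control mature DCs, higher in knockout with intervals that overlap. Positive cDC1 averaged 31.8 UMIs in knockout and 12.0 UMIs in control, and positive mature DCs 29.7 UMIs in knockout and 8.61 UMIs in control. The UMIs were uneven among cells, with the top 10% of cDC1 holding 72.8% of them in knockout and 76.1% in control. The summed level of 7 macrophage markers was 46.2 CPM in knockout and 334 CPM in control cDC1. In mature DCs it was 40.3 CPM in knockout and 188 CPM in control, and all 7 were lower in knockout in both types. The 5 monocyte markers summed to 826 CPM in knockout and 821 CPM in control cDC1, and to 111 CPM in knockout and 359.5 CPM in control mature DCs. In each of these types 4 of the 5 were lower in knockout and 1 was higher. The part of macrophage and monocyte RNA in these Cxcl9 values was not tested. B cells gave the background, with a Cxcl9 UMI in 3.08% of knockout and 11.9% of control cells.

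The monocyte and macrophage difference depended on which cells were compared. Split by marker balance, the monocyte side had 571 CPM of Cxcl9 in knockout and 571 CPM in control, while the macrophage side had 470.0 CPM in knockout and 799.7 CPM in control, a log2 ratio of -0.76 (-0.82 to -0.71). The cells on neither side, 277 in knockout and 300 in control, had 160.0 CPM in knockout and 382 CPM in control, a log2 ratio of -1.23 (-1.40 to -1.06). Most knockout cells lay in clusters 15, 6, 17 and 14, and most control cells in clusters 28, 29, 16, 18, 7 and 27, and 525 of 1322 knockout and 1887 of 4076 control cells lay in clusters with at least 20 such cells in both libraries. Cluster 15, led by Retnla, held 521 knockout cells with 81.4 CPM, and cluster 17, led by Cd209f and Cd163, held 230 knockout cells with 247 CPM. In control, cluster 29 had 1155 CPM, cluster 18, led by Cbr2 and Gas6, had 973 CPM, and cluster 28, led by Arg1 and Spp1, had 183 CPM. Of the 6 clusters with at least 20 cells in both libraries, Cxcl9 was called higher in cluster 6, an Il1b and Ptgs2 cluster with 1257 CPM in knockout and 446 CPM in control, lower in cluster 14, with 36.1 CPM in knockout and 58.8 CPM in control, and within 1.5-fold in the other 4. Among these 6, cluster 19 was named cDC2 by its markers and held 22 knockout and 62 control cells of this gate. Over all genes and the 6 clusters 19.8% of pairs were called higher and 14.7% lower. With the CPM of these clusters averaged at equal weight the log2 ratio was 0.22, opposite in sign to the pooled value. The median of the 6 cluster log2 ratios was -0.07. With single-cell means the pooled value was -0.52 and after thinning -0.45, both within 1.5-fold.

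**Figure D3:**
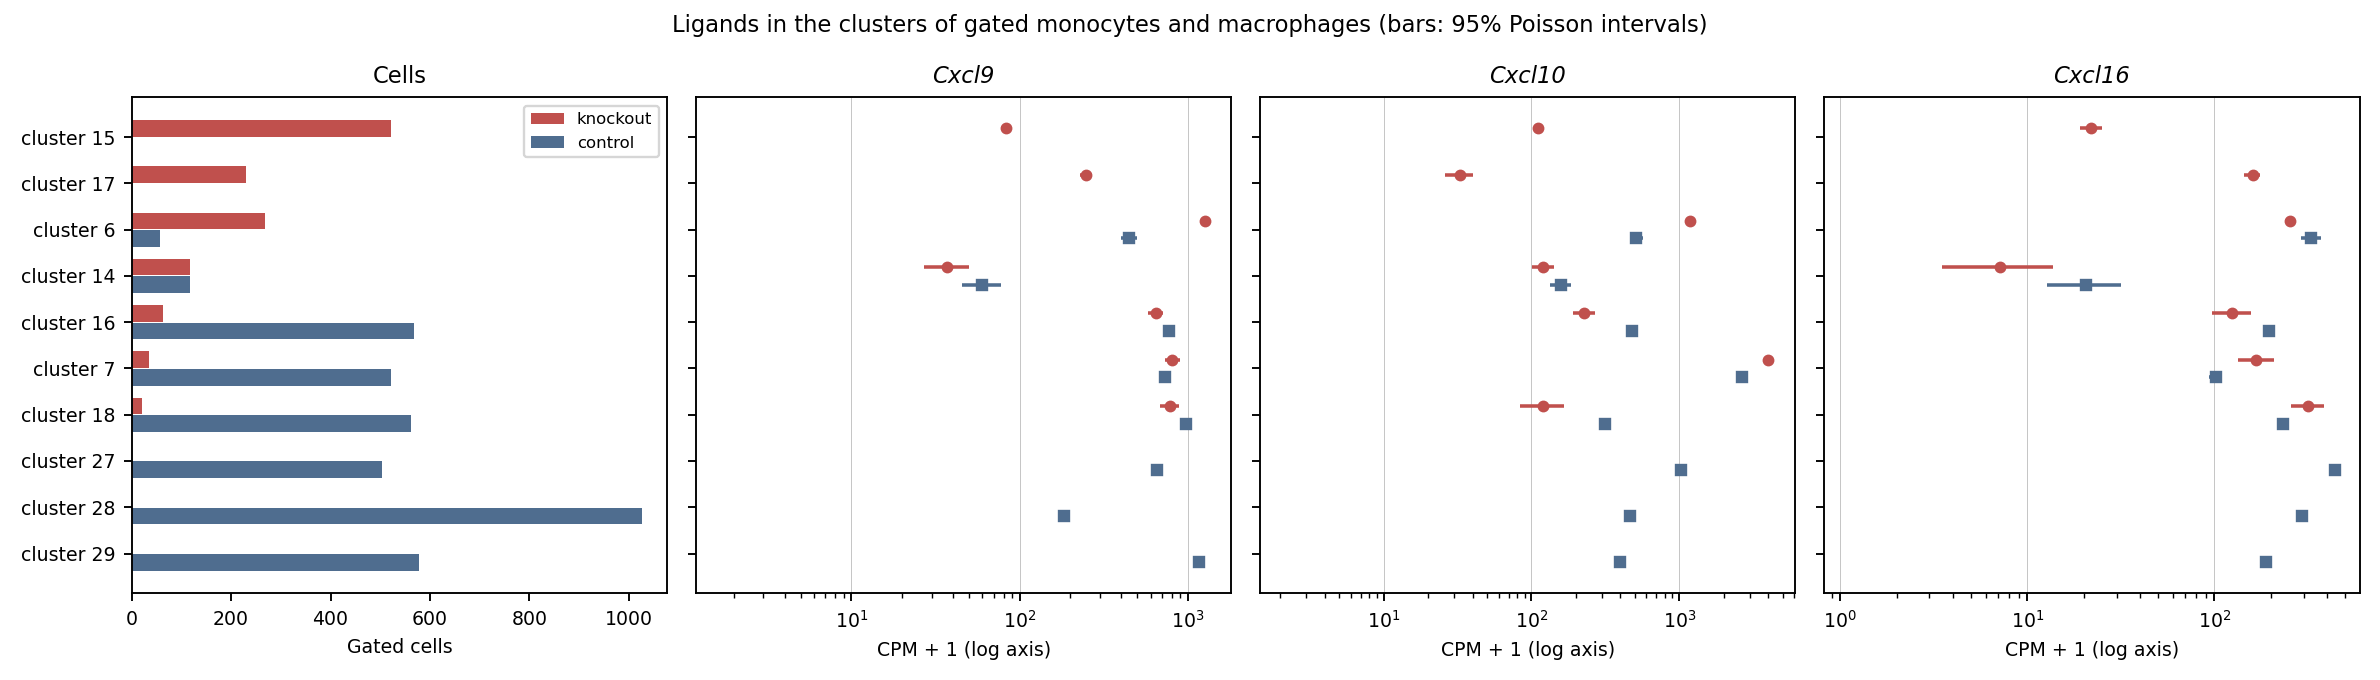
Gated monocytes and macrophages by cluster: number of cells, and summed levels of Cxcl9, Cxcl10 and Cxcl16 (CPM + 1, log axis) where a library had at least 20 cells, for clusters with at least 100 such cells in a library, with 95% Poisson intervals. Clusters run from knockout-rich at the top to control-rich at the bottom, knockout above control in each. Clusters 15 and 17 hold knockout values and clusters 27, 28 and 29 control values only.

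Cxcl10 was lower in knockout monocytes and macrophages and cDC2 and close between libraries in cDC1. Monocytes and macrophages had 433 CPM in knockout (interval 424 to 443) and 685 CPM in control (679 to 691), a log2 ratio of -0.66 (-0.70 to -0.61). The gene was detected in 27.4% of knockout and 56.3% of control cells of this type. In cDC2 it was 156 CPM in knockout and 259 CPM in control, a log2 ratio of -0.71 (-0.89 to -0.53). In cDC1 it was 42.8 CPM in knockout and 38.6 CPM in control, a log2 ratio of 0.13 (-0.27 to 0.54) that became -0.61 when high doublet scores were kept and -0.62 after thinning. Mature DCs had 178 CPM in knockout and 122 CPM in control, a log2 ratio of 0.53 (0.23 to 0.84), within 1.5-fold. It passed 1.5-fold with cells named by cluster (1.47), with high doublet scores kept (0.60) and with free RNA subtracted (0.63). Fewer knockout mature DCs had the gene, 16.7% (10.9 to 24.0) against 34.3% (27.3 to 41.8) in control. After thinning these shares were 12.6% in knockout and 17.0% in control, with overlapping intervals. The top 10% of mature DCs held 96.6% of the Cxcl10 UMIs in knockout and 84.1% in control.

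Among the clusters with at least 100 monocytes and macrophages in a library, Cxcl10 was highest in cluster 7. This cluster, led by Vcan and Chil3 with Cxcl10 itself among its leading genes, had 4000.2 CPM in 35 knockout cells and 2676 CPM in 522 control cells. On the monocyte side as a whole it was 898 CPM in knockout and 1329 CPM in control, a log2 ratio of -0.56 (-0.63 to -0.50), and on the macrophage side 299 CPM in knockout and 521 CPM in control, a log2 ratio of -0.79 (-0.86 to -0.72). The cells on neither side had 237 CPM in knockout and 1064 CPM in control, a log2 ratio of -2.14 (-2.27 to -2.02). Cluster 6 ran the other way, with 1179.6 CPM in knockout and 512 CPM in control. Of the 6 shared clusters Cxcl10 was called higher in 1 and lower in 3. With clusters weighted equally the log2 ratio was 0.21 where the pooled value was -0.66. Equal weighting averages CPM over clusters, and cluster 7 had the highest level among them. The median of the 6 cluster log2 ratios was -0.72.

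Neutrophils had the highest Cxcl10 level of any type with at least 20 cells in both libraries, from a minority of cells. They had 1109 CPM in 86 knockout cells and 928 CPM in 115 control cells, a log2 ratio of 0.26 (0.00 to 0.51), with the gene in 17.4% of knockout and 26.1% of control cells. The top 10% of neutrophils held 98.2% of these UMIs in knockout and 95.2% in control. The summed level of 5 monocyte markers in them was 492 CPM in knockout and 496 CPM in control, and its part in this result was not tested. Melanoma-gated cells had 590.0 CPM in 18 knockout cells and 199 CPM in 397 control cells. NK cells had 11.5 CPM in knockout and 83.7 CPM in control, a log2 ratio of -2.43 (-2.84 to -2.01), with the gene in 4.01% of knockout and 21.5% of control cells. The 7 macrophage markers in NK cells were at 27.4 CPM in knockout and 234 CPM in control, all 7 lower in knockout, and their part in the NK value was not tested. B cells, as a background, had a Cxcl10 UMI in 5.38% of knockout and 15.4% of control cells.

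Cxcl16 had its highest level in the mature DCs of both libraries, where that level hardly differed, and was lower in knockout monocytes and macrophages. Mature DCs had 501 CPM in knockout (interval 471 to 534) and 550.5 CPM in control (522 to 580.1), a log2 ratio of -0.13 (-0.30 to 0.03), with the gene in 93.5% of knockout and 93.7% of control cells. Nearly all cells were positive, and the thinned share was lower in knockout, at 72.4% (63.8 to 80.0), than in control, at 86.7% (80.5 to 91.5). The intervals of the thinned shares did not overlap. Monocytes and macrophages had 104 CPM in knockout (99.5 to 109) and 252 CPM in control (248 to 256), a log2 ratio of -1.24 (-1.32 to -1.16), with the gene in 35.3% of knockout and 72.0% of control cells. In cDC1 it was 85.5 CPM in knockout and 74.8 CPM in control, and in cDC2 61.0 CPM in knockout and 69.9 CPM in control, both within counting error. The cDC2 value was past 1.5-fold with cells named by cluster (-0.63), and the gene was detected in 32.1% of knockout and 48.3% of control cDC2. B cells had a Cxcl16 UMI in 0.769% of knockout and 1.40% of control cells.

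Cxcl16 also differed among monocyte and macrophage clusters. The monocyte side had 81.6 CPM of Cxcl16 in knockout and 131 CPM in control, a log2 ratio of -0.65 (-0.85 to -0.45), and the macrophage side had 154 CPM in knockout and 279 CPM in control, a log2 ratio of -0.84 (-0.93 to -0.74). The cells on neither side had 35.4 CPM in knockout and 239 CPM in control, a log2 ratio of -2.60 (-2.88 to -2.32). The Retnla cluster 15 had 20.9 CPM in knockout, and cluster 27, a control cluster led by Gdf15 and Ifnb1, had 441 CPM. Cluster 18 had 315 CPM in 20 knockout cells and 232 CPM in 562 control cells, and cluster 7 had 166 CPM in knockout and 101 CPM in control. Cluster 16 had 123 CPM in knockout and 194 CPM in control. With the 6 shared clusters weighted equally the log2 ratio was -0.04, and the median of the 6 cluster log2 ratios was -0.24.

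Ligand UMIs came more from dendritic cells in the knockout library, where those cells were also a larger share. Monocytes and macrophages held 40.0% of Cxcl9 UMIs in knockout (39.3 to 40.7) and 90.2% in control (90.0 to 90.5), while the 3 dendritic cell types held 44.4% in knockout and 4.70% in control. For Cxcl10 the monocyte and macrophage share was 62.1% in knockout and 84.2% in control, and the dendritic cell share 13.7% and 1.84%. For Cxcl16 these shares were 44.4% and 86.6% for monocytes and macrophages, and 43.4% and 8.06% for dendritic cells, with mature DCs alone holding 22.0% in knockout and 6.17% in control. Cells outside the gates held 13.5% of Cxcl9 UMIs in knockout and 3.72% in control.

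**Figure D4:**
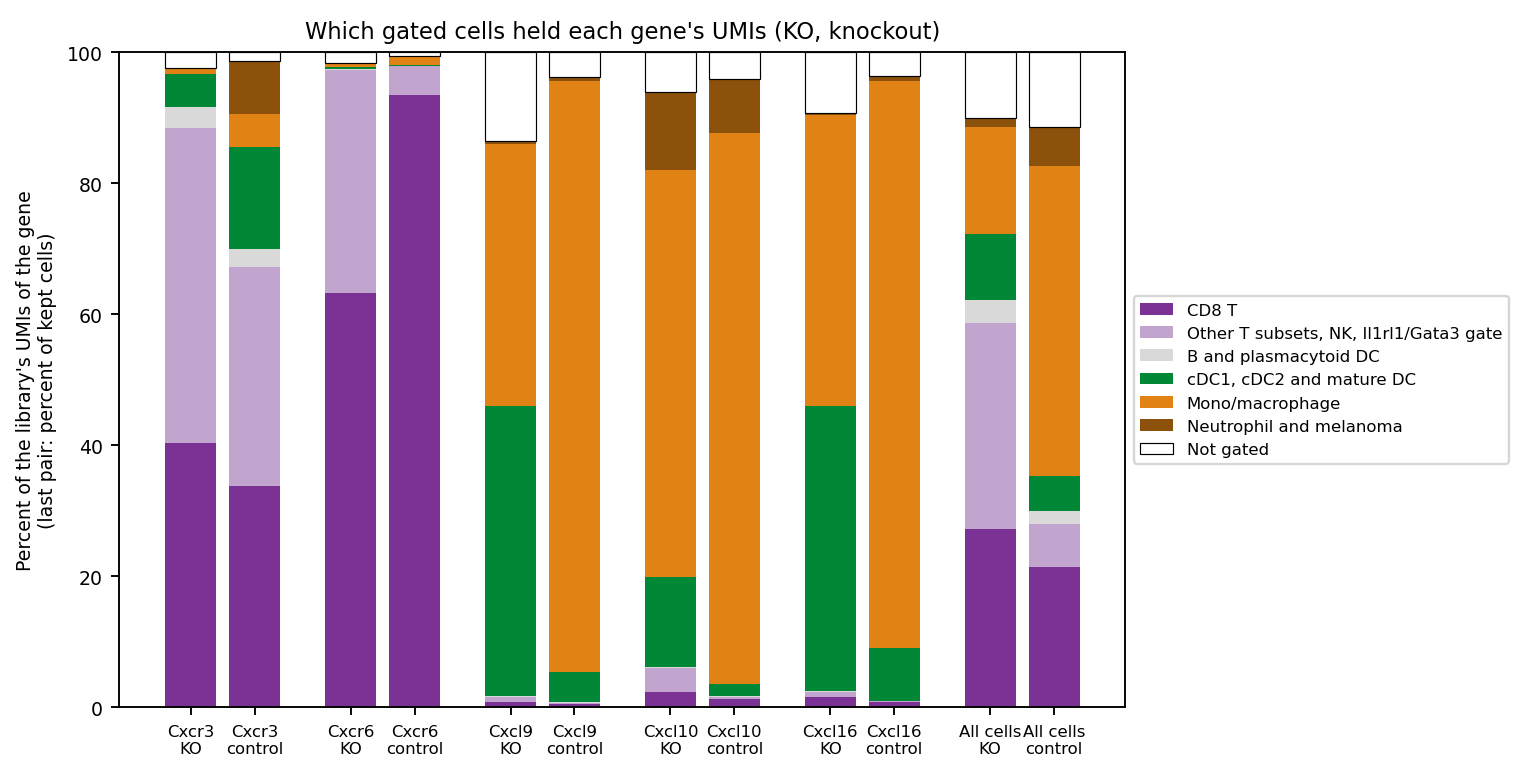
Percent of each gene's UMIs held by groups of gated cell types, knockout (KO) left of control for each gene, with the share of kept cells in the last pair. Dendritic cells hold 44.4% of Cxcl9 UMIs in knockout and 4.70% in control, and CD8 T cells hold 63.3% of Cxcr6 UMIs in knockout and 93.5% in control.

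On the receptor side, T cells of all gates held 78.5% of Cxcr3 UMIs in knockout and 61.3% in control, with CD8 T cells at 40.4% and 33.8%. The cDC1 held 4.25% of Cxcr3 UMIs in knockout and 15.4% in control, from 2.91% and 1.55% of cells. T cells held 93.1% of Cxcr6 UMIs in knockout and 97.6% in control.

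Whole-library balances of ligand against receptor differed in the same direction for all 3 pairs. Capture differs between genes, so only the same ratio is compared between libraries. There were 3.32 Cxcl9 UMIs per Cxcr3 UMI in knockout and 51.6 in control, 2.25 Cxcl10 UMIs per Cxcr3 UMI in knockout and 51.2 in control, and 0.322 Cxcl16 UMIs per Cxcr6 UMI in knockout and 1.49 in control. Both sides differed for the first pairs: per kept cell there were 0.744 Cxcr3 UMIs in knockout and 0.144 in control, 2.47 Cxcl9 UMIs in knockout and 7.43 in control, and 1.67 Cxcl10 UMIs in knockout and 7.37 in control. Per kept cell Cxcr6 was near equal, at 1.74 UMIs in knockout and 1.77 in control. Cxcl16 was at 0.561 UMIs per kept cell in knockout and 2.64 in control. Counts per kept cell are not scaled for depth, and kept cells had a median of 10974 UMIs in knockout and 13536 UMIs in control. In CPM over all kept cells, Cxcr6 was at 124 in knockout and 88.8 in control, a log2 ratio of 0.46 (0.41 to 0.50). The log2 ratios on this scale were 2.25 for Cxcr3, -1.06 for Cxcl9, -1.59 for Cxcl10 and -1.61 for Cxcl16. All of these whole-library values carry the cell mix of each sorted library, in which macrophages were fewer and lymphocytes more numerous in knockout.

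The ligands were detected together in monocytes and macrophages, while in mature DCs Cxcl16 was not more frequent beside Cxcl9. Among monocytes and macrophages, Cxcl10 was found in 44.1% of Cxcl9-positive and 20.4% of Cxcl9-negative cells in knockout, and in 63.3% and 47.3% in control. Cxcl16 was found in 66.0% of Cxcl9-positive and 22.6% of Cxcl9-negative cells in knockout, and in 82.2% and 59.0% in control. In mature DCs, where nearly every cell had Cxcl16, its share was 93.5% beside Cxcl9 and 93.4% without it in knockout, and 94.6% and 93.1% in control. After thinning the share in mature DCs was 71.1% beside Cxcl9 and 73.2% without it in knockout, and 80.9% and 89.0% in control. Deeper cells show more genes of any kind, and thinning to 4000 UMIs left the same order in monocytes and macrophages, with Cxcl10 in 40.3% and 13.0% in knockout and in 43.9% and 34.4% in control.

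Across the 23 columns given by a cell type and a library with at least 100 cells, the levels of Cxcl9 and Cxcl16 had a Pearson r of 0.93 on the log2 scale, Cxcl9 and Cxcl10 of 0.76, Cxcl10 and Cxcl16 of 0.70, and Cxcr3 and Cxcr6 of 0.53. These columns share 2 libraries and their free RNA, so the values are descriptions. Among 12615 genes those most like Cxcl9 were Sdc3 and Aif1 (0.95 each), Tmem106a (0.94), Anpep and Ifi205 (0.93 each). Those most like Cxcl10 were Il18bp, Ifitm2 and Creb5 (0.91 each), 6430548M08Rik and Ifi204 (0.90 each), and those most like Cxcl16 were Fnbp1l (0.96), Rtn4 and Arhgap22 (0.95 each), Tmem106a and Nostrin (0.94 each). Cxcr6 was followed most closely by Trbc2, Bcl11b and Gstp3 (0.96 each), Lat and Gm39323 (0.95 each). Cxcr3 had the weakest likenesses, with Zfp141 and Gm2237 (0.87 each), Phrf1 and Edc3 (0.84 each) and Ppp6r1 (0.82).

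Of 23 other genes of these pathways, Ifng, which encodes interferon-γ, was lower in knockout CD8 T, CD4 T and NK cells and higher in regulatory T cells. Ifng was at 134 CPM in knockout and 288 CPM in control CD8 T cells (log2 ratio -1.08), at 117 CPM in knockout and 419 CPM in control CD4 T cells (-1.79), and at 33.6 CPM in knockout and 53.6 CPM in control NK cells (-0.60). Regulatory T cells had 43.0 CPM of Ifng in knockout (81 UMIs in 150 cells) and 13.6 CPM in control (16 UMIs in 68 cells), a log2 ratio of 1.37. In CD8 T cells 4 of the 21 genes measured were higher and 3 lower, among them the kinases Jak2 (0.99) and Jak1 (0.82), higher, and Rgs1 (-0.79), a brake on chemokine receptor signalling, lower. In CD4 T cells 0 of 21 were higher and 4 lower, including Rgs1 at 149 CPM in knockout and 406 CPM in control. In regulatory T cells 6 of 20 were higher and 0 lower, and in NK cells 2 of 22 were higher and 3 lower. Over all genes, 18.5% were called higher and 7.89% lower in CD8 T cells, and 13.6% and 10.5% in CD4 T cells. The all-gene shares were 20.4% and 13.7% in regulatory T cells, and 8.10% and 5.26% in NK cells. The median log2 ratio of the genes measured was 0.11 in CD8 T cells, -0.16 in CD4 T cells, 0.34 in regulatory T cells and 0.19 in NK cells, against 0.14, 0.06, 0.10 and 0.09 over all genes. With median-of-ratios scaling 3 genes were higher in regulatory T cells and 0 in NK cells. Tbx21, which encodes T-bet, a factor that drives Cxcr3 in T cells, was at 365 CPM in knockout and 226 CPM in control NK cells (0.68), a call lost with median-of-ratios scaling (0.58), and at 187 CPM in knockout and 124 CPM in control CD8 T cells, within 1.5-fold (0.57). The 54 control CD4 T cells also carried the 7 macrophage markers at 515 CPM, against 28.7 CPM in knockout CD4 T cells, and the part of that RNA in the CD4 values was not tested.

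In the ligand-making cells the interferon-γ signalling genes were mostly within 1.5-fold. In monocytes and macrophages 4 of 20 pathway genes were higher and 1 lower, with a median log2 ratio of 0.09, against -0.01 over all genes. Over all genes 14.9% were called higher and 14.4% lower in these cells. Irf1, a transcription factor induced by interferons, was at 248 CPM in knockout and 247 CPM in control, while the receptor subunit Ifngr1 was at 174 CPM in knockout and 91.7 CPM in control (0.89). Socs1, a feedback inhibitor induced by interferons, was lower at 27.6 CPM in knockout and 66.0 CPM in control (-1.12). Dpp4, a protease that truncates CXCL9 and CXCL10, was at 45.6 CPM in knockout and 10.6 CPM in control (1.70).

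In dendritic cells the counts were 4 of 20 higher and 0 lower in cDC1, 3 of 20 higher and 3 lower in cDC2, and 6 of 21 higher and 4 lower in mature DCs. Over all genes, 10.7% were called higher and 5.60% lower in cDC1, 14.7% and 8.12% in cDC2, and 20.2% and 12.4% in mature DCs. The median log2 ratios of the pathway genes were 0.28 in cDC1, 0.13 in cDC2 and 0.12 in mature DCs, against 0.08, 0.10 and 0.13 over all genes. Il15, which sustains CXCR6-positive T cells, was higher in all 4 myeloid types, at 183 CPM in knockout and 103 CPM in control monocytes and macrophages, and at 95.1 CPM in knockout and 43.1 CPM in control cDC1. The mature DC call for Il15 (0.63) was lost with median-of-ratios scaling (0.48), under which 2 genes were higher in that type. The CXCL16 sheddase genes were higher in mature DCs, where Adam17 was at 118 CPM in knockout and 62.2 CPM in control (0.87) and Adam10 at 107 CPM in knockout and 66.2 CPM in control (0.66), the last a call lost with median-of-ratios scaling (0.51). In monocytes and macrophages both were within 1.5-fold, Adam17 at 177 CPM in knockout and 211 CPM in control and Adam10 at 165 CPM in knockout and 113 CPM in control. Socs1 was lower in cDC2 (-1.58) and in mature DCs (-1.18). Irf1 was lower in cDC2, at 215 CPM in knockout and 329 CPM in control (-0.60), and within 1.5-fold in cDC1 and mature DCs.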

How the data were processed

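Single-cell RNA of sorted CD45+ tumour cells was analysed in 2 libraries. The deposited matrices hold raw UMI counts per gene and cell; per the file headers they were written by Cell Ranger 7.2.0, and the submitters' processing notes name mm10. Barcodes with at least 200 genes and under 10% mitochondrial UMIs were kept, and the highest Scrublet doublet scores were removed at an expected 0.8% per 1000 barcodes, leaving 8062 knockout and 8595 control cells (scanpy 1.11.5). Cells with at least 1000 UMIs were gated by scores of 9 lineage and 4 myeloid marker lists, without the 5 genes reported. Counts were summed per type and library. Ratios use a pseudocount of 5 CPM and background shares the genes averaging at least 10 CPM in types with at least 50 cells in each library. With 1 library per group there is no test, and intervals (exact Poisson for sums, Clopper-Pearson for shares) cover counting error only. The 1.5-fold call was tested on simulated counts, which cannot show how far replicate libraries of a group would differ. Leiden clusters (resolution 1.5), CD8 states and the monocyte and macrophage sides are descriptive, and the splits and the equal weighting of clusters were chosen after seeing the data. Unlike the gates, the clustering did not leave out the 5 genes. Cxcl10 was among the leading genes of cluster 7, and Cxcr6 among those of cluster 8. The members, gene lists and rules were chosen with earlier results of these data known. All 5 members are named, pathway genes past 1.5-fold by size, and the 5 genes most like each member.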

Additional observations from a re-analysis of the deposited data

Results flagged for a closer look

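Cxcl9 differed in opposite directions between cell types. Its log2 ratio, knockout over control, was 1.87 in mature DCs and 1.30 in cDC1, and -0.84 in monocytes and macrophages. The difference between the types was not tested, since each group has 1 library. Under the alternatives run, the mature DC value lay between 1.47 and 2.70 and the cDC1 value between 1.09 and 1.32. The monocyte and macrophage value lay between -0.95 and 0.22, and with clusters weighted equally (0.22) its direction was no longer opposite. The median of the 6 cluster log2 ratios was -0.07.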

How the results depend on the processing

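No paired analysis was possible because each group has 1 library. Under 9 alternatives for each of 5 main values, Cxcr3 and Cxcr6 in CD8 T cells kept their direction and their side of 1.5-fold. Cxcr3 was 2.80 with a pseudocount of 1 CPM, 1.97 with single-cell means, 2.03 after thinning and 0.73 with clusters weighted equally. Cxcr6 was -0.44 with median-of-ratios scaling, -0.39 with single-cell means, -0.37 after thinning and -0.43 with equal clusters. In monocytes and macrophages, naming cells by cluster gave -0.95 for Cxcl9 and -0.79 for Cxcl10. Single-cell means gave -0.52 for Cxcl9, -0.84 for Cxcl10 and -1.09 for Cxcl16, and thinning -0.45 for Cxcl9, -0.84 for Cxcl10 and -1.14 for Cxcl16. Equal clusters gave 0.22 for Cxcl9 and 0.21 for Cxcl10, both reversed, and -0.04 for Cxcl16. These values average CPM over 6 clusters and use 525 of 1322 knockout and 1887 of 4076 control cells. The medians of the 6 cluster log2 ratios were -0.07 for Cxcl9, -0.72 for Cxcl10 and -0.24 for Cxcl16. The cause of these shifts was not tested. Of 144 other log2 ratios recomputed, 122 stayed within counting error and 0 of those called changed sign. Cxcr3 in CD4 T cells was 0.85 with cells named by cluster. Of 80 recomputed shares of UMIs 56 left their counting interval, as did 23 of 64 shares of cells. Without the filter on low values 11.5% of genes were past 1.5-fold in CD8 T cells, against 26.4% with it, and 13.5% against 29.3% in monocytes and macrophages. With cells named by cluster 4 pathway genes were called higher in CD4 T cells and 1 in cDC2, against 0 and 3. Depth limits the shares of cells with a UMI, and values of clusters with few cells are the least certain.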
